A study of Homo sapiens with 2 samples.

Results

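Solute carriers are membrane proteins that move amino acids, sugars, nucleotides, ions, vitamins and lipids across the plasma membrane and the membranes of organelles. They are named SLC with a family number, and they use gradients of ions or of their substrates in place of ATP. In proliferating tumour cells the carriers of glutamine, essential amino acids, glucose and lactate supply growth, and MYC is known to raise several of them. The genes described here are those whose platform symbol began with SLC and a digit, apart from the mitochondrial SLC25 carriers and antisense or pseudogene symbols. There were 21 such genes among the 14884 genes with a name. The platform gave 37 symbols of this form. The others were 2 SLC25 carriers, 10 antisense genes, 1 pseudogene and 3 divergent or overlapping transcripts that encode no carrier.

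The cells were HT1080, an established human fibrosarcoma line grown in culture. A virus brought in a short hairpin RNA (shRNA), either against cMyc or non-targeting, and the cells were collected after 48 hours. There was 1 Affymetrix Human Gene 2.0 ST array for each condition, a whole-transcript array that summarises several probes to 1 value per probe set. The labels name no second culture, infection or hairpin for either condition, so there is no spread between replicates, and neither a test nor a p-value is given.

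The label of the set needs a limit. None of the 25 textbook carriers looked for, among them SLC7A5, SLC3A2, SLC1A5, SLC2A1, SLC16A1 and SLC29A1, had a named probe set, and they are not analysed here. All 20 carriers found also have an older symbol of another kind in RefSeq, such as PQLC3 for SLC66A3, and 10 of them were MFSD genes of the major facilitator superfamily. The remaining member, SLC2A4RG, encodes a DNA-binding regulator of the glucose transporter gene SLC2A4 and is not a carrier. By SLC number 4 members fell into amino acid and peptide families, 2 into the nucleotide sugar family SLC35 and 1 into a main ion family. The nucleoside families SLC28 and SLC29, the monocarboxylate family SLC16 and the zinc families SLC30 and SLC39 had 0 members each.

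Values are log2 expression levels, and differences are the cMyc shRNA array minus the control array, so a positive value means higher with cMyc shRNA. The targeted gene, MYC, read 7.09 in the control and 6.16 with cMyc shRNA, a difference of -0.93. The array medians were 3.68 and 3.73. Of 12 mesenchymal markers 5 were named: FN1 read 12.4 and 12.6, VIM 9.94 and 9.34, and THY1, TWIST1 and S100A4 lay between 3.06 and 4.86 on both arrays. Epithelial markers had 8 of 9 genes named, between 2.45 and 9.09 on the control array and between 2.43 and 8.41 on the other. KRT18 was the highest at 9.09 and 8.41, KRT8 read 5.30 and 4.62, and KRT19 read 4.31 and 3.85. CLDN3 read 6.09 and 5.92, and CLDN7 read 4.62 and 5.15. CLDN4 read 3.24 and 3.58, EPCAM 2.73 and 3.07, and ESRP1 2.45 and 2.43. The summed level of the named markers (not log2) was 1.04 times the control for the mesenchymal and 0.695 times for the epithelial list. It was 1.01 times for the hepatocyte and kidney list, with 7 of 10 genes named. For the neuronal list, with 3 of 7 named, it was 0.842 times. There STMN2 read 4.28 and 3.27, GAP43 4.07 and 4.04, and SYT1 4.22 and 4.34. For the haematopoietic list it was 1.87 times, with 2 of 8 genes named, LYZ near 2.9 on both arrays and CD68 at 10.4 and 11.3. Their part in the differences below was not tested, and in bulk RNA fewer cells of a type and less RNA per cell cannot be told apart.

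A gene was counted as measured when its mean over both arrays reached 3.70, the median of all probe sets. This left 20 of the 21 members and 10258 of all named genes, and the 20 lay above 3.70 on both arrays. SLC51A alone was below it, at 3.43 and 3.39. Each member was read by 1 probe set. The only estimate of technical spread came from 416 other genes, by comparing different probe sets of the same gene on these arrays. It gave a technical SD of a log2 difference of 0.34. Variation between cultures and any array error shared by the probe sets of a gene are not part of it.

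As a set, the members, SLC2A4RG included, showed no common direction. Their median log2 difference was 0.00, with quartiles of -0.11 and 0.44, and 10 of the 20 measured members were above 0 (9 to 12 under other scalings of the arrays). Over all measured genes the median was -0.01, the quartiles were -0.31 and 0.26, and 48.5% were above 0. SLC66A3 was the 1 member of 20 at least 2-fold higher, against 2.01% of all measured genes. At least 2-fold lower were 0 members, against 4.0% of all. At 1.5-fold, 2 members were higher (8.77% of all genes) and 1 was lower (11.9%). A difference of at least 0.34 upward was seen in 8 members and downward in 3, while 9 lay within it. Over all measured genes these shares were 20.1%, 23.4% and 56.5%.

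**Figure D1:**
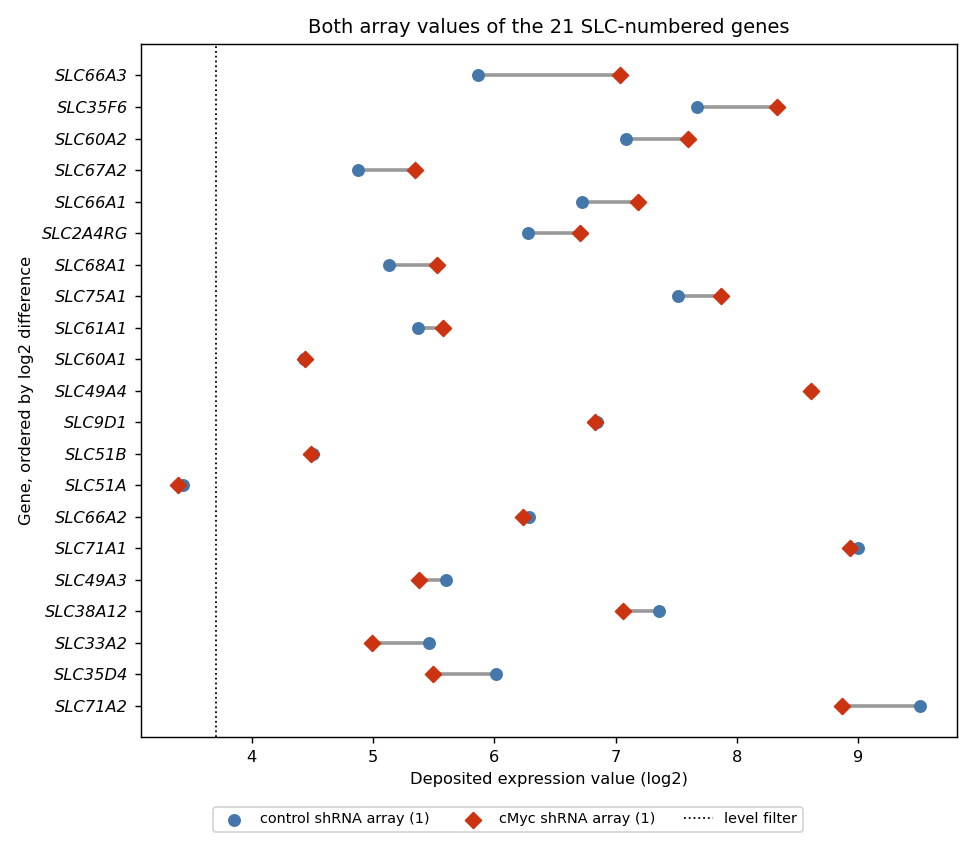
Deposited log2 expression value of each of the 21 genes on the control shRNA array (blue circle) and the cMyc shRNA array (red diamond), 1 array each, ordered by their difference. The grey line joins the values of a gene and the dotted line is the level filter at 3.70. SLC66A3 has the longest line, from 5.86 to 7.03, and SLC71A2 has the longest in the other direction.

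The PQ-loop family SLC66 held the highest difference of the set and differed among its own members. SLC66A3, whose substrate is not established, read 5.86 in the control and 7.03 with cMyc shRNA (probe set 16877133). This is a difference of 1.17, or 2.25-fold higher. Among all measured genes 137 had a higher difference, and 2 of its 500 nearest neighbours in level did. It lay 2.53 local robust SDs, taken from the median absolute deviation, above the median of those neighbours. SLC66A1, the lysosomal exporter of lysine and arginine, read 6.72 and 7.19, which is 1.38-fold higher (0.46). SLC66A2 read 6.29 and 6.24, a difference of -0.05 whose sign changed under another scaling of the arrays. Only SLC66A3 of the 3 was past 2-fold, and SLC66A2 was within the technical SD.

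SLC38A12, placed by its sequence beside the sodium-coupled neutral amino acid carriers and formerly TMEM104, read 7.36 and 7.06. It was 1.23-fold lower (-0.30), within the technical SD. The 4 genes of amino acid families therefore had values on both sides of 0, with a median of 0.21.

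The nucleotide sugar family SLC35, whose best known members feed the Golgi and endoplasmic reticulum with activated sugars, had 2 members that lay on opposite sides. SLC35F6 read 7.67 and 8.33 (probe set 16877946), 1.57-fold higher, a difference of 0.65 that 38 of its 500 neighbours in level exceeded. SLC35D4, formerly TMEM241, read 6.01 and 5.49 (probe set 16854245), 1.43-fold lower (-0.52). Neither reached 2-fold, and both differences exceeded the technical SD.

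Members of the major facilitator superfamily with a former MFSD symbol had a median of 0.11 over all 10. Of these 6 were above 0 (5 under other scalings), against 48.5% of all measured genes, and 0 were past 2-fold in either direction. The paralogues SLC71A1 and SLC71A2, formerly MFSD14A and MFSD14B, had unlike values. SLC71A2 read 9.51 and 8.86 (probe set 17087034), the lowest difference of the set at -0.65, or 1.57-fold lower. Of its 500 neighbours in level 46 were lower still. SLC71A1 read 8.999 and 8.931, a difference of -0.07.

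SLC60A2, known as a sodium-dependent glucose transporter, read 7.09 and 7.59, a difference of 0.51 (1.42-fold higher). Its paralogue SLC60A1 read 4.43 and 4.44, with a difference of 0.01 whose sign changed under another scaling. SLC67A2, formerly MFSD9, read 4.87 and 5.35 (0.48 higher) and SLC68A1, formerly MFSD13A, read 5.13 and 5.53 (0.40 higher). SLC75A1, an organic anion carrier related to bacterial tetracycline exporters, read 7.51 and 7.87, a difference of 0.36. These 4 genes, SLC60A2 included, were higher by more than the technical SD and by less than 1.5-fold.

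SLC61A1, a molybdate carrier grouped here under other or unassigned substrates, read 5.37 and 5.57, a difference of 0.20. SLC33A2, a relative of the acetyl-CoA transporter of the endoplasmic reticulum, read 5.46 and 4.99. It was 1.39-fold lower (-0.47). SLC49A3 read 5.60 and 5.38 (-0.22), and SLC49A4, a lysosomal protein of the family that also holds the haem and choline carriers, read 8.61 on both arrays. Its difference of 0.00 was among the smallest of the set, and its sign changed under another scaling.

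The group of main ion carriers was represented by SLC9D1 alone, formerly TMCO3, which belongs by sequence with the cation-proton exchangers. It read 6.84 and 6.83, a difference of -0.01, and the sign changed under another scaling. The bile acid and steroid exporter of gut and liver works as a complex of the SLC51A and SLC51B products. SLC51B read 4.51 and 4.48 (-0.02), and SLC51A was below the level filter on both arrays. SLC2A4RG, the regulator that is no carrier, read 6.28 and 6.71, a difference of 0.43.

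**Figure D2:**
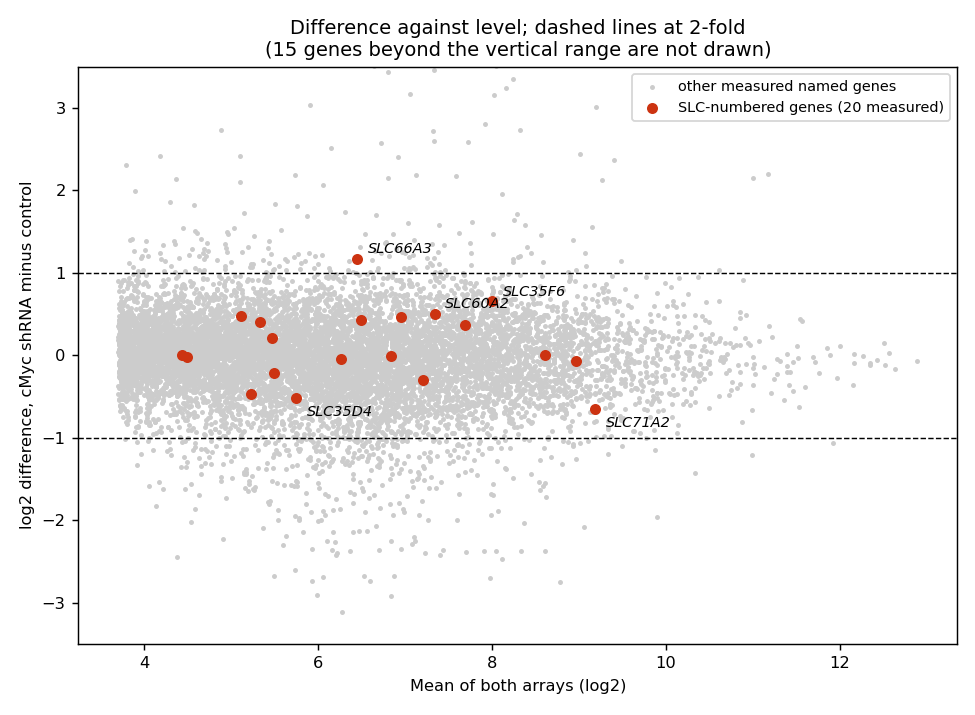
Difference between the arrays (cMyc shRNA minus control, log2) against the mean of both arrays (log2) for measured genes, with the 20 measured SLC-numbered genes in red. Dashed lines mark 2-fold. SLC66A3 is the only red point outside them, with 137 measured genes higher still, and the other red points lie from -0.65 to 0.65. The 15 genes beyond the vertical range are not drawn.

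Promoter sequences from RefSeq (GRCh38.p14, from 250 bases before each gene's start to 50 after it) were searched for 17 of the 21 members. SLC33A2, SLC35D4, SLC35F6 and SLC66A2 were not among those searched. Their absence does not show that RefSeq lacks a promoter for them, and whether they hold either motif was not tested. MYC with its partner MAX binds the E-box CACGTG, which reads the same on both strands, and less tightly the variant CACGCG, and both were searched on either strand. The E-box was found in 2 of the 17, SLC60A2 and SLC61A1. It was found in 12.2% of the 7900 measured genes with a promoter and in 7.26% of the table's 35116 promoters. The variant was found in 3, SLC38A12, SLC49A3 and SLC71A1, against 21.8% of those genes and 11.4% of all promoters. Neither count sets the members apart from the measured genes. A match is a run of letters and does not show binding.

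The E-box windows are shown for the members that hold it, 30 bases each, 5′ to 3′, with the E-box in capitals. They lie at chr6:111259298-111259327 (plus strand) and chr12:53252082-53252111 (plus strand).
SLC60A2: ccacatttccgcCACGTGacccgcgcatgc
SLC61A1: ccgcgcccccgtCACGTGatgaagccatca
The first begins its E-box 29 bases before the start, the second 1 base before it. The difference of SLC60A2 was 0.51, while that of SLC61A1 (0.20) lay within the technical SD, as did those of the 3 members with the variant.

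The 100 bases just before the start are shown for the highest member and for the SLC71 paralogues with unlike values, with the E-box variant in capitals. They are chr2:11155367-11155466, chr1:100037995-100038094 and chr9:94374469-94374568, all on the plus strand.
SLC66A3: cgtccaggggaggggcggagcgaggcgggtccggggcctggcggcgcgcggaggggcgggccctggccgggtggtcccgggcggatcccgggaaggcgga
SLC71A1: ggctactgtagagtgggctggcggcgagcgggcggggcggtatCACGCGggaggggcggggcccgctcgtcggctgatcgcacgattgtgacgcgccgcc
SLC71A2: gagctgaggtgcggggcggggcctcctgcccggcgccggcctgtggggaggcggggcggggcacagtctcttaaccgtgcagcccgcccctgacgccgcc
All 3 windows are rich in G and C, at 84%, 75% and 79%, and hold 15, 16 and 11 CG dinucleotides. SLC71A1 has the variant 57 bases before its start and again at 130 bases, outside the window shown. SLC71A2 has neither motif in its 300 bases. Over the 250 bases before the start the median GC content was 71.0% for the members' 18 promoters, with SLC75A1 entered more than once. It was 64.0% for promoters of all measured genes.

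As a comparison chosen after the annotation and values were seen, genes with an SLC number of this kind only as a RefSeq synonym were read. There were 52 such named genes, and 37 of them were measured. Their median was 0.04, next to 0.00 for the members. At least 2-fold lower were 2, TMEM184A (-1.31) and the sideroflexin SFXN2 (-1.03), which belongs to a family of mitochondrial carriers, and 0 were 2-fold higher. The shares over all measured genes were 4.0% lower and 2.01% higher, so 2 of 37 is near the background. The mitochondrial pyruvate carrier subunits, the nearest to a monocarboxylate group that could be read, had opposite values: MPC1 read 6.06 and 6.63 (0.57) and MPC2 read 7.45 and 6.73 (-0.73).

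Genes that work with carriers were followed in 5 lists, whose counts stand beside the same shares over all measured genes (4.0% lower by 2-fold or more, 2.01% higher). The list sizes include genes without a named probe set, so a gene not measured was not always below the level filter. For amino acid supply 15 of 21 genes were measured with a median of -0.04, from the lysosomal GTPase gene RRAGA (-0.74) to SESN2, a leucine sensor (0.94), and 0 reached 2-fold. The 4 members of amino acid families had -0.30 to 1.17 in comparison. For metal handling 8 of 18 were measured with a median of -0.09, from ATOX1 (-0.30) to the metallothionein MT1X (0.66), and 0 reached 2-fold.

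The remaining lists had lower medians. Monocarboxylate and sugar transport partners had 10 of 12 measured and a median of -0.44, with 1 at least 2-fold lower (2 after centring). That gene was lactate dehydrogenase LDHA (-1.17), MPC1 was highest, and BSG, the chaperone of lactate carriers, had 0.03. Nucleoside salvage had 12 of 14 measured, all below 0 (11 of 12 under loess or quantile normalization), with a median of -0.41 and 3 at least 2-fold lower. Of all 10258 measured genes 5265 were below 0. Cytidine deaminase CDA was lowest (-1.69), and DGUOK, a mitochondrial deoxyguanosine kinase, was nearest to 0 at 0.00. Regulators of ion carriers had 8 of 20 measured and a median of -0.30, with 2 at least 2-fold lower (1 after quantile normalization). The kinase WNK1, which controls cation-chloride carriers, was lowest (-1.17), and SGK1 was highest (0.47). Whether the carriers these genes act with changed could not be read for the nucleoside and monocarboxylate families, which had no member.

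**Figure D3:**
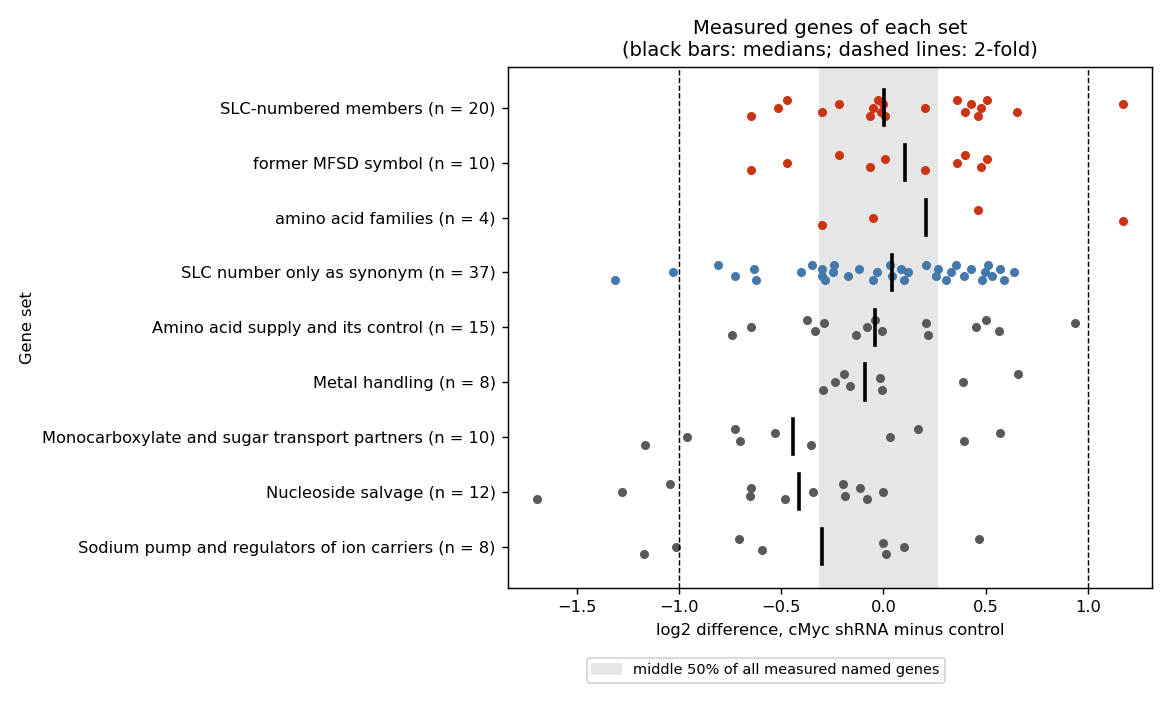
Difference between the arrays (cMyc shRNA minus control, log2) of every measured gene in each set, with black bars at the medians and grey shading over the middle 50% of all measured named genes. The SLC-numbered members lie around 0 (median 0.00), and the bars of nucleoside salvage (-0.41) and of monocarboxylate and sugar transport partners (-0.44) lie left of the shading.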

How the data were processed

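Per the submitters' processing notes, Affymetrix Expression Console made the deposited values. Neither its version nor its normalization is given in the sources used here. The authors deposited log2 expression values for 53617 probe sets, from 1.41 to 13.9. Base 2 was inferred from the range of the values. There are no detection calls, and having 2 arrays limits the precision. GEO's platform annotation gave 1 symbol to 16098 probe sets, 0 had several and 37519 were unnamed here. The probe set with the highest mean stood for a gene. The members, lists and rules were chosen with earlier results of these data known. The naming rule took every member at least 2-fold apart, the highest and lowest 2 of each SLC group, fixed textbook carriers, MYC and the extremes of each related list. The remaining members, the synonym set and BSG were added once values had been seen. Local SDs used the 500 genes nearest in level. Python 3.11.15, numpy 2.4.6, pandas 2.3.3, scipy 1.17.1, statsmodels 0.14.6 and matplotlib 3.10.9 were used, and the 2-fold count was tested on simulated data.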

Additional observations from a re-analysis of the deposited data

How the results depend on the processing

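Under centring, quantile normalization and loess, 1 member was at least 2-fold higher and 0 were lower, as deposited. The members' median moved between -0.04 and 0.05, and no member moved by more than 0.07. The sign changed under at least 1 of these scalings for 4 members near 0: SLC49A4, SLC60A1, SLC66A2 and SLC9D1. Level filters and means in place of medians (0.12 for the members, 0.32 for the amino acid families) moved no median by the technical SD. The probe set rule could not move a member, because each was read by 1 probe set. The rule of size moved the counts by construction: the 1.5-fold rule gave 2 higher and 1 lower, and 3 local robust SDs gave 0 higher, so the call of SLC66A3 ended there. Adding the 3 divergent or overlapping transcripts, or leaving out SLC2A4RG, both chosen after seeing the data, gave medians of 0.00. The families grouped as nucleoside, monocarboxylate and metal ion carriers had no member and no value. The molybdate carrier SLC61A1 stood under other or unassigned substrates. No paired analysis was possible because each condition has 1 array.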

Other observations

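The 3 transcripts named after a neighbouring carrier gene encode no carrier, and all were measured. SLC20A1-DT, named after a phosphate carrier gene, read 4.22 in the control and 3.80 with cMyc shRNA, a difference of -0.42. SLC2A1-DT, named after the gene of a glucose transporter, read 4.33 and 4.65 (0.32), and SLC9A3-OT1, named after a sodium-proton exchanger gene, read 6.42 and 6.09 (-0.33). None reached 1.5-fold, and the neighbouring carrier genes are not analysed here.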
